A study of Mus musculus with 6 samples.

Results

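Catalase (Cat), glutathione peroxidase 1 (Gpx1) and peroxiredoxin 4 (Prdx4) are 3 enzymes that remove hydrogen peroxide, and they are described here across 6 microarrays of cadmium-treated and untreated NIT-1 cells. They are 3 of 18884 genes measured under a single name. They were chosen by name with their values in this comparison already known, so their differences between the groups are given as a description and are not tested. The 3 cadmium arrays were from cells held for 24 h in medium with 4 µmol/L CdSO4, after 24 h in plates, and the 3 control arrays from cells given 0 µmol/L on the same schedule. The series describes this cadmium dose as a way to induce oxidative damage. NIT-1 is an established line of mouse beta cells, from animals that carried a viral T antigen driven by an insulin promoter, and both groups share that background. The samples are labelled biological replicates, and the labels do not tell if passages or days differed, so each spread below is that between these cultures.

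Hydrogen peroxide is made in several compartments of the cell and is removed in each by different enzymes. Catalase, a haem enzyme of peroxisomes, splits it into water and oxygen without a reducing partner. Gpx1, a selenoprotein of the cytosol and mitochondria, reduces it with glutathione, which glutathione reductase regenerates with NADPH. Prdx4, a peroxiredoxin of the endoplasmic reticulum, uses the peroxide released during disulphide formation to oxidise protein disulphide isomerases. Beta cells are known for low levels of catalase and glutathione peroxidase compared with liver.

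The upstream sequences of the 3 genes are shown because the direction of change differed among them. Each is the 250 bases before the annotated transcription start in RefSeq (GRCm38.p6), 5′ to 3′ on the strand of the gene, which was chr2:103485154-103485403 on the minus strand for Cat, chr9:108338830-108339079 on the plus strand for Gpx1 and chrX:155338461-155338710 on the minus strand for Prdx4. Capitals mark every match to the motifs named below.
Cat: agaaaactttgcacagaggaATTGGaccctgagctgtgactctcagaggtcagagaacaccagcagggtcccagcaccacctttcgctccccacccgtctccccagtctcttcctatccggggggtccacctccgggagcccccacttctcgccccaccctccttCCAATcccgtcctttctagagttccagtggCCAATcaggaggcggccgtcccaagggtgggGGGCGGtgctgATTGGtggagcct
Gpx1: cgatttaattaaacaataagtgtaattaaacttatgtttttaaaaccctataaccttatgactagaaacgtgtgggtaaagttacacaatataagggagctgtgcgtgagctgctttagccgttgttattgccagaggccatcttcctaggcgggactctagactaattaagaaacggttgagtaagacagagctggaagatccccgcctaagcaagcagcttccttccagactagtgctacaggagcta
Prdx4: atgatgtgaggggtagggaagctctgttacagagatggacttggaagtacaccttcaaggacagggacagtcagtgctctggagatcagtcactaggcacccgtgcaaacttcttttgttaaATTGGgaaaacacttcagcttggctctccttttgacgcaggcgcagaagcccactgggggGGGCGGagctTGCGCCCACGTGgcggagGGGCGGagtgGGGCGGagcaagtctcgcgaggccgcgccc
Of the motifs searched on both strands, the antioxidant response element core TGACNNNGC, which Nrf2 binds with small Maf proteins, matched 0 of the 3 sequences and 10.2% of the 32851 promoters in the same table. The heat shock element core GAANNTTC also matched 0 of the 3, against 6.69% of promoters. The metal response element core was searched as TGCGCNC and TGCACNC, and the first matched Prdx4 alone, at 58 to 52 bases before the start, where 12.5% of promoters held it and 10.4% held the second. That match shares 1 base with a CACGTG E-box, also found in Prdx4 alone, a motif held by 6.02% of promoters. The CCAAT box matched at 4 places in Cat and 1 in Prdx4, and GGGCGG at 1 place in Cat and 3 in Prdx4, motifs present in 33.8% and 32.7% of promoters. The Gpx1 sequence held no match to any of the 7 motifs and had a GC content of 42.0%, against 62.0% for Cat and 58.8% for Prdx4. These matches describe letters in the sequence and are not evidence of binding.

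Values below are signals on a log2 scale, a base inferred from their range, as mean ± SD over the 3 arrays of a group (n = 3), and a change is the cadmium mean minus the control mean, with the standard error (SE) of the limma fit. A background bound of 6.18 was set from the 5222 negative control probes, as their 95th percentile on each array averaged over the 6 arrays, and marks a group mean as above or below background. Where 1 group mean lay below it, the ratio of signals is given as "at least", against the mean of, on each array of the dimmer group, the higher of the gene's own signal and the 95th percentile on that array. Array medians over transcript clusters were between 3.39 and 3.40 with cadmium and between 3.34 and 3.35 in control, and the median change over all genes was 0.04. Cadmium replicate 1 and control replicate 3 differed from the remaining arrays along the second principal component, so changes without each are given. Of 18 beta cell markers, 9 were measured and 0 had a group mean above the bound, with a summed signal of 7.29 to 7.30 in cadmium arrays and 7.15 to 7.27 in control arrays and with Ins2 at 5.29 ± 0.04 with cadmium and 5.27 ± 0.10 in control. The label of beta cell therefore has no defining marker above background among the 9 measured. The bound is strict, since 2460 of 18884 genes had a group mean above it. The median of the positive control probes, 5.87 to 6.10 over the arrays, also lay below it. A signal below the bound therefore does not show that a gene is not expressed. Of the 9 acinar markers measured, none above the bound, 2 were higher with cadmium, Cela2a (limma adjusted p = 0.0440) and Ctrb1 (limma adjusted p = 0.0301). Among those that did not pass, Prss2 and Cel had a lower mean with cadmium. Over all genes 12.2% were called at an adjusted p under 0.05, 6.47% as higher and 5.72% as lower. The summed signal of the 9 was 7.31 to 7.34 in cadmium arrays and 7.21 to 7.22 in control arrays. Of 2 duct markers measured, neither above the bound, Cftr was lower with cadmium, at 2.84 ± 0.06 against 3.26 ± 0.11. The other, Muc1, lay the other way, at 3.81 ± 0.02 against 3.69 ± 0.04 (limma adjusted p = 0.153). The summed signal of the 2 was 4.40 to 4.42 against 4.43 to 4.56. Of 2 stromal markers measured, Col3a1 was lower with cadmium, at 8.06 ± 0.17 against 9.07 ± 0.13. The other, Col1a2, was at 5.11 ± 0.04 against 5.14 ± 0.04 (limma adjusted p = 0.676). Their summed signal, mostly that of Col3a1, was 8.06 to 8.37 against 9.04 to 9.28. The part of such marker differences in the results was not tested. In bulk RNA, fewer cells of a type and less RNA per cell cannot be told apart.

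Catalase was higher with cadmium. Its signal was 6.15, 6.15 and 6.26 on the cadmium arrays, against 5.68, 5.82 and 5.77 on the control arrays. The groups were separated by a gap of 0.34, against a range of 0.11 among cadmium arrays and 0.13 among control arrays. The means were 6.19 ± 0.06 with cadmium and 5.76 ± 0.07 in control, a change of 0.43 ± 0.06 (SE). All 3 control arrays and cadmium replicate 1 lay below the bound of their own array, so no ratio is given. The change ran from 0.40 to 0.46 when each array was left out in turn, and was 0.45 without cadmium replicate 1 and 0.44 without control replicate 3.

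Gpx1 was higher with cadmium and had the widest spread of the 3. It measured 6.94, 7.54 and 7.43 on the cadmium arrays, against 6.71, 6.43 and 6.64 on the control arrays. Cadmium replicate 1 lay much closer to the controls than the other cadmium arrays did, and the gap between the groups was 0.23 while the cadmium arrays ranged over 0.60. The means of 7.30 ± 0.32 with cadmium and 6.59 ± 0.15 in control gave a change of 0.71 ± 0.16 (SE), or a 1.63-fold higher signal. Both means and all 6 arrays were above the bound, which held for Gpx1 alone among the 3 genes. Without cadmium replicate 1 the change was 0.89, and the other arrays left out in turn gave 0.59 to 0.77, with 0.73 without control replicate 3.

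Prdx4 was lower with cadmium. Its signal was 5.21, 5.60 and 5.63 on the cadmium arrays, against 6.06, 5.99 and 6.16 on the control arrays. Cadmium replicate 1 was the lowest cadmium array, as for Gpx1, and the gap between the groups was 0.36. The means were 5.48 ± 0.24 with cadmium and 6.07 ± 0.09 in control, a change of -0.59 ± 0.12 (SE). Both means were below the bound, so no ratio is given, and on the cadmium arrays Prdx4 exceeded 88.9% to 92.1% of negative control probes, against 93.8% to 95.1% on the control arrays. The change was -0.45 without cadmium replicate 1, -0.54 without control replicate 3 and between -0.67 and -0.45 over all arrays left out in turn.

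**Figure D1:**
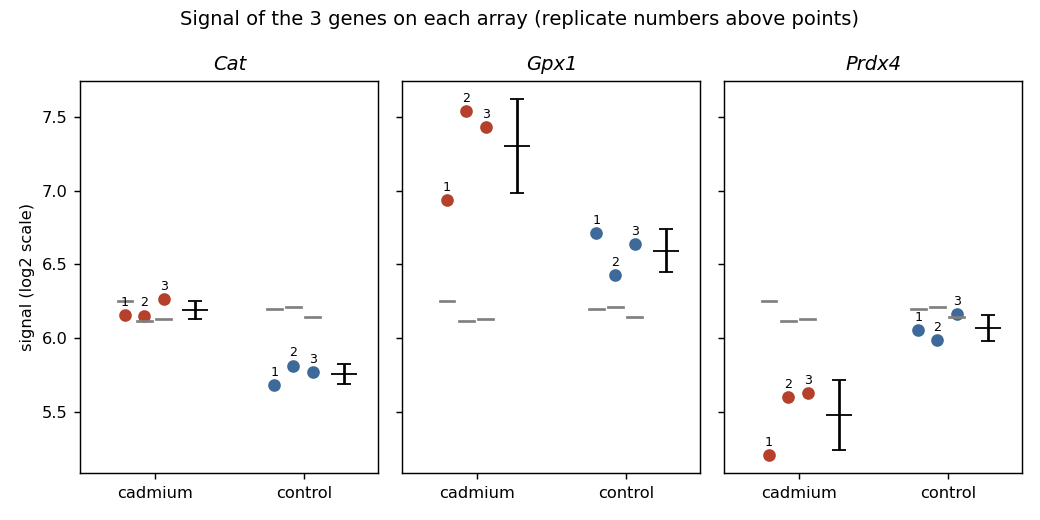
Signal on the log2 scale of Cat, Gpx1 and Prdx4 on each array, with replicate numbers above the points, group mean and SD as black bars, and as grey dashes the 95th percentile of the negative controls on that array. Cadmium arrays lie above control arrays for Cat and Gpx1 and below them for Prdx4, and cadmium replicate 1 is the lowest cadmium array for Gpx1, at 6.94, and for Prdx4, at 5.21.

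The 3 genes were all among those past the threshold of the fit over all genes (limma, Benjamini-Hochberg adjusted p under 0.05), which 12.2% of the 18884 genes passed, 6.47% as higher and 5.72% as lower with cadmium. The higher share of the calls was 53.1%, and 38.0% with each array centred on its median. Their groups did not overlap, as was the case for 35.9% of all genes. Both statements follow from how the genes were chosen. With each array left out in turn, Cat stayed past the threshold in 6 of 6 fits and Prdx4 in 3 of 6, those without a cadmium array. Gpx1 did so in 1 of 6, that without cadmium replicate 1. Among all genes, 3.27% had a change as high as that of Cat or higher, 1.49% as high as that of Gpx1 or higher, and 1.10% as low as that of Prdx4 or lower. The fits with an array left out and these shares also reuse the values that chose the genes. They describe the 3 genes and carry no test of them.

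**Figure D2:**
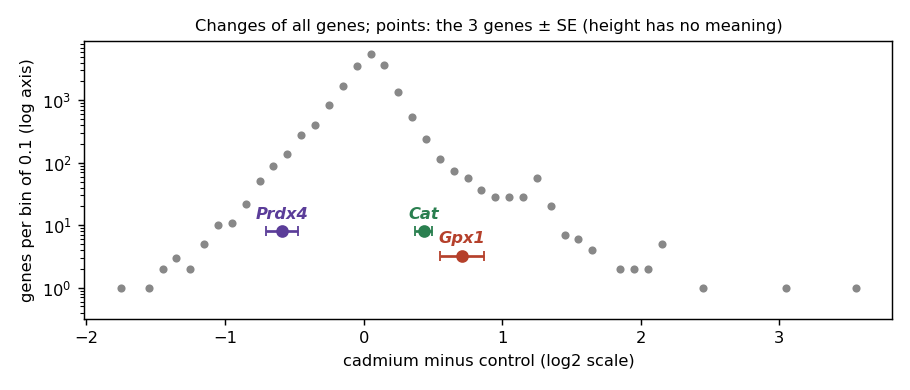
Number of genes, on a log axis, per bin of 0.1 of the change with cadmium on the log2 scale (grey points, bins with no gene left out), with the changes of Cat, Gpx1 and Prdx4 and their SE as coloured points whose height carries no meaning. Cat at 0.43 and Gpx1 at 0.71 lie in the upper flank and Prdx4 at -0.59 in the lower flank.

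A constant offset of an array cancels in the difference between 2 genes on it. Gpx1 minus Prdx4 was 1.73, 1.94 and 1.80 on the cadmium arrays, against 0.65, 0.44 and 0.47 on the control arrays, a shift of 1.30. Its SD among cadmium arrays was 0.10, while that of Gpx1 itself was 0.32 and that of Prdx4 0.24, since cadmium replicate 1 was low for both. Cat minus Prdx4 shifted by 1.02, with means of 0.71 ± 0.21 with cadmium and -0.31 ± 0.12 in control and no overlap between groups. Gpx1 minus Cat was 0.78, 1.38 and 1.17 on the cadmium arrays, against 1.03, 0.62 and 0.86 on the control arrays. These overlapped between the groups. The differences are not exact, since Prdx4 lay below the bound in both groups and Cat in control, and their shifts only combine the changes for which the genes were chosen.

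**Figure D3:**
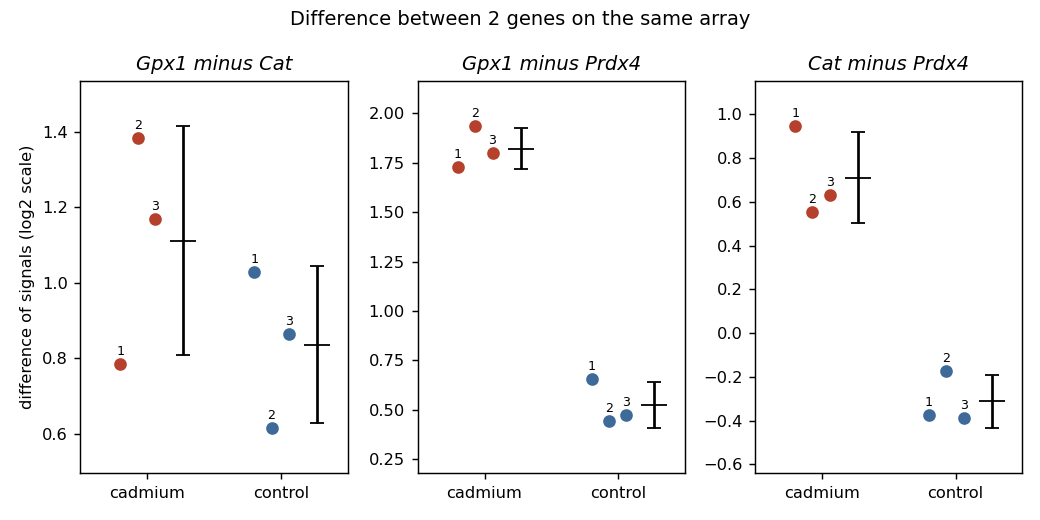
Difference between the log2 signals of 2 genes on the same array, for the 3 pairs among Cat, Gpx1 and Prdx4, with replicate numbers, group means and SD. Gpx1 minus Prdx4 and Cat minus Prdx4 do not overlap between groups, with all 3 cadmium arrays on top, and Gpx1 minus Cat overlaps between groups.

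Other genes of the same pathways were taken from 12 lists. Apart from the 3 enzymes, 120 of their genes were measured, and at a limma adjusted p under 0.05 there were 16 higher and 15 lower with cadmium, while 89 did not pass. These are 25.8% of the 120, against 12.2% of all genes. In a fit of the genes whose brighter group mean reached the median level, 34 of 94 list genes passed, or 36.2%, against 24.7% of all genes in that fit. The median change over the 120 was 0.03, against 0.04 over all genes. The lists were chosen with earlier results of these data known.

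Of the enzymes closest to the 3, only Gpx7 and Prdx2 were measured under a single name, and neither passed. Gpx7, a glutathione peroxidase of the endoplasmic reticulum, was at 4.31 ± 0.13 with cadmium and 4.19 ± 0.10 in control (limma adjusted p = 0.363). Prdx2, a cytosolic peroxiredoxin, was at 5.29 ± 0.15 with cadmium and 5.18 ± 0.10 in control (limma adjusted p = 0.424). Both were below the bound in both groups and their arrays overlapped. Gpx4, Prdx1, Prdx3, Prdx5 and Prdx6 were not analysed here.

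For catalase, the surrounding compartment is the peroxisome. Of 26 measured genes of peroxisome assembly and peroxisomal enzymes, 0 rose and 4 fell. That is 15.4% called, near the 12.2% of all genes (6.47% higher and 5.72% lower). Abcd3, a transporter of fatty acids in the peroxisomal membrane, measured 5.53, 5.43 and 5.49 on the cadmium arrays, against 5.84, 5.88 and 5.82 on the control arrays, a change of -0.36 ± 0.05 (SE, limma adjusted p = 0.00602). Crot, which makes carnitine esters of medium-chain fatty acids for export, fell to 5.48 ± 0.01 with cadmium, against 5.95 ± 0.17 in control. Lonp2, the protease of the peroxisomal matrix, was at least 1.26-fold lower, at 6.11 ± 0.17 against 6.51 ± 0.08, and Tmem135, a membrane protein, fell by 0.30. The other 22 did not pass, among them Pex16, which inserts peroxisomal membrane proteins, with a change of -0.07 ± 0.05 (SE), and Far1, of ether lipid synthesis, with 0.01 ± 0.07 (SE). In 25 of the 26 both means were below the bound, and the median change was -0.03. At an unadjusted p under 0.05, 0 were higher and 4 lower.

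For Gpx1, 3 groups of genes concern its reductant glutathione, the NADPH with which glutathione is regenerated, and its selenocysteine. In glutathione supply and reduction 4 of 8 genes rose and 0 fell, or 50% called against 12.2% of all genes (6.47% higher and 5.72% lower). Gclc, the catalytic part of the enzyme that starts glutathione synthesis, measured 7.61, 7.97 and 7.95 on the cadmium arrays, against 6.83, 6.87 and 6.87 on the control arrays. It was 1.99-fold higher, and cadmium replicate 1 was again the lowest of its group (limma adjusted p = 0.00176). Gsr, the reductase that returns oxidised glutathione to use, measured 5.41, 5.48 and 5.50 on the cadmium arrays, against 5.13, 5.07 and 5.06 on the control arrays (limma adjusted p = 0.00536). Slc7a11, which imports cystine, was at 4.67 ± 0.12 with cadmium and 3.83 ± 0.15 in control, and Ggct, which acts on gamma-glutamyl peptides, rose by 0.25 ± 0.05 (SE). The 4 that did not pass included Cth, which makes cysteine from cystathionine, at 6.51 ± 0.16 against 6.89 ± 0.28 (limma adjusted p = 0.139), and Ggt7, at 5.78 ± 0.08 against 5.88 ± 0.17. With an unadjusted p under 0.05 there were 4 higher and 1 lower. In 6 of the 8 both means were below the bound, among them Gsr, Slc7a11 and Ggct.

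Of 11 genes of NADPH supply 2 rose and 2 fell, or 36.4% called against 12.2% of all genes. Me1, the cytosolic malic enzyme, was at least 1.23-fold higher, at 6.48 ± 0.19 with cadmium and 5.80 ± 0.13 in control (limma adjusted p = 0.00921). Taldo1, of the pentose phosphate pathway, was 1.37-fold higher, at 6.65 ± 0.09 against 6.19 ± 0.05. Idh2, a mitochondrial isocitrate dehydrogenase, was 1.21-fold lower, at 6.37 ± 0.09 against 6.65 ± 0.06, and Mthfd1l, of folate metabolism, fell to 4.99 ± 0.03 with cadmium, against 5.20 ± 0.01 in control. Pgls and G6pd2, also of the pentose phosphate pathway, did not pass, and the signal of G6pd2 is uncertain because it is a retrocopy of G6pdx with a similar sequence.

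Selenoprotein genes changed in both directions. The list of selenoprotein synthesis, which also held genes of selenium uptake and selenium binding, had 11 measured genes. In it 1 rose and 1 fell, or 18.2% called, near the 12.2% of all genes. Scly, which releases selenium from selenocysteine, rose at least 1.16-fold, measuring 6.28, 6.54 and 6.41 on the cadmium arrays, against 5.74, 5.67 and 5.67 on the control arrays (limma adjusted p = 0.00187). Sepsecs, the enzyme that completes selenocysteine on its tRNA, fell to 5.35 ± 0.09 with cadmium, against 5.83 ± 0.11 in control (limma adjusted p = 0.00831). The other 9 did not pass, among them the selenoprotein P receptor gene Lrp8, at 6.89 ± 0.02 against 6.93 ± 0.29. Of 8 selenoproteins outside the peroxidases 1 rose and 2 fell, or 37.5% called. Selenow rose by 0.39 ± 0.07 (SE), Selenoi, of phospholipid synthesis, fell by 0.47 and Selenos, of the degradation of proteins from the endoplasmic reticulum, was 1.36-fold lower, at 6.38 ± 0.16 against 6.82 ± 0.14. Selenot, at 7.85 ± 0.11 against 8.01 ± 0.03, and Selenon, at 6.07 ± 0.30 against 6.61 ± 0.19, did not pass. At an unadjusted p under 0.05, 2 of these 8 were higher and 5 lower, and their median change was -0.16. In the list of selenoprotein synthesis 1 was higher and 2 were lower by the same measure.

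For Prdx4, the surrounding process is disulphide formation in the endoplasmic reticulum. Of 13 measured genes of oxidative folding 0 rose and 4 fell, the direction of Prdx4. That is 30.8% called, against 12.2% of all genes (6.47% higher and 5.72% lower). Vkorc1, which reduces vitamin K epoxide and takes part in disulphide exchange, measured 5.96, 5.77 and 5.62 on the cadmium arrays, against 6.47, 6.50 and 6.66 on the control arrays. It was at least 1.30-fold lower (limma adjusted p = 0.00347), and its groups did not overlap. Dnajc10, a disulphide reductase, was at 5.16 ± 0.03 with cadmium and 5.68 ± 0.21 in control, and Tmx4, a thioredoxin-like membrane protein, was at least 1.10-fold lower, at 5.86 ± 0.03 against 6.30 ± 0.19. Qsox2, a sulphydryl oxidase that itself makes peroxide, fell by 0.32. The protein disulphide isomerase gene Pdia3 did not pass, at 7.77 ± 0.11 against 7.95 ± 0.13 (limma adjusted p = 0.224), nor did Vkorc1l1, at 6.61 ± 0.25 against 6.87 ± 0.22. The median change of the 13 genes was -0.22, and 9 had both means below the bound. By unadjusted p under 0.05, 0 were higher and 6 lower. The Ero1 oxidases and P4hb were not analysed here.

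Peroxiredoxins are recycled by thioredoxin and sulfiredoxin. Of 8 genes of thioredoxin and glutaredoxin recycling 1 rose and 2 fell, or 37.5% called against 12.2% of all genes. Srxn1, sulfiredoxin, which repairs overoxidised peroxiredoxins, measured 6.60, 6.61 and 6.76 on the cadmium arrays, against 6.08, 6.06 and 6.08 on the control arrays, and was at least 1.38-fold higher (limma adjusted p = 0.00182). The sestrin genes Sesn3 and Sesn1 fell by 0.35 and 0.28, whereas Sesn2 measured 6.85 ± 0.11 with cadmium and 6.35 ± 0.29 in control and did not pass (limma adjusted p = 0.0662, and 0.00524 without control replicate 3). Txn1, thioredoxin, measured 6.92, 7.44 and 7.32 on the cadmium arrays, against 6.75, 6.81 and 6.74 on the control arrays. It did not pass (limma adjusted p = 0.0609), and without cadmium replicate 1, the low array for Gpx1 as well, it did (limma adjusted p = 0.00378).

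Among 19 genes whose products release hydrogen peroxide or its precursor superoxide, 3 rose and 0 fell. That is 15.8% called, near the 12.2% of all genes (6.47% higher and 5.72% lower). Loxl1, a lysyl oxidase that makes peroxide outside the cell, was at 5.23 ± 0.07 with cadmium and 4.60 ± 0.09 in control (limma adjusted p = 0.00187). Nox4, an NADPH oxidase, was at 3.21 ± 0.11 against 2.86 ± 0.03, and Smox, spermine oxidase, at 5.90 ± 0.03 against 5.67 ± 0.04, all below the bound in both groups. Maoa, monoamine oxidase A, was 1.26-fold lower and did not pass (limma adjusted p = 0.0543, and 0.0105 without cadmium replicate 1). Cyba, a membrane subunit of NADPH oxidases, did not pass either. At an unadjusted p under 0.05 the list had 5 higher and 1 lower.

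Of 10 genes of Nrf2 and Foxo control 4 rose and 0 fell, or 40% called against 12.2% of all genes (6.47% higher and 5.72% lower). Hmox1, which degrades haem and is a target of Nrf2, was at least 2.62-fold higher, at 7.58 ± 0.26 with cadmium and 5.41 ± 0.26 in control (limma adjusted p = 0.00148). Mafk, a small Maf partner of Nrf2, was at least 1.38-fold higher, and Blvrb, a biliverdin reductase, at least 1.05-fold. Nqo1, a quinone reductase, rose to 3.24 ± 0.06 with cadmium, against 2.80 ± 0.12 in control, both below the bound. Nfe2l2, the gene of Nrf2, measured 7.14, 6.56 and 6.49 on the cadmium arrays, against 6.39, 6.39 and 7.26 on the control arrays, and did not pass (limma adjusted p = 0.928). Its high arrays were the same 2, cadmium replicate 1 and control replicate 3, that stood apart from the rest. Foxo4 did not pass, and by unadjusted p under 0.05 the counts were 5 higher and 1 lower. Of 4 genes of methionine sulphoxide reduction and protein repair 0 passed, with Park7 at 6.22 ± 0.09 against 6.19 ± 0.02 and Msrb2 at 5.58 ± 0.05 against 5.49 ± 0.05. At an unadjusted p under 0.05, 0 of these 4 passed as well.

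**Figure D4:**
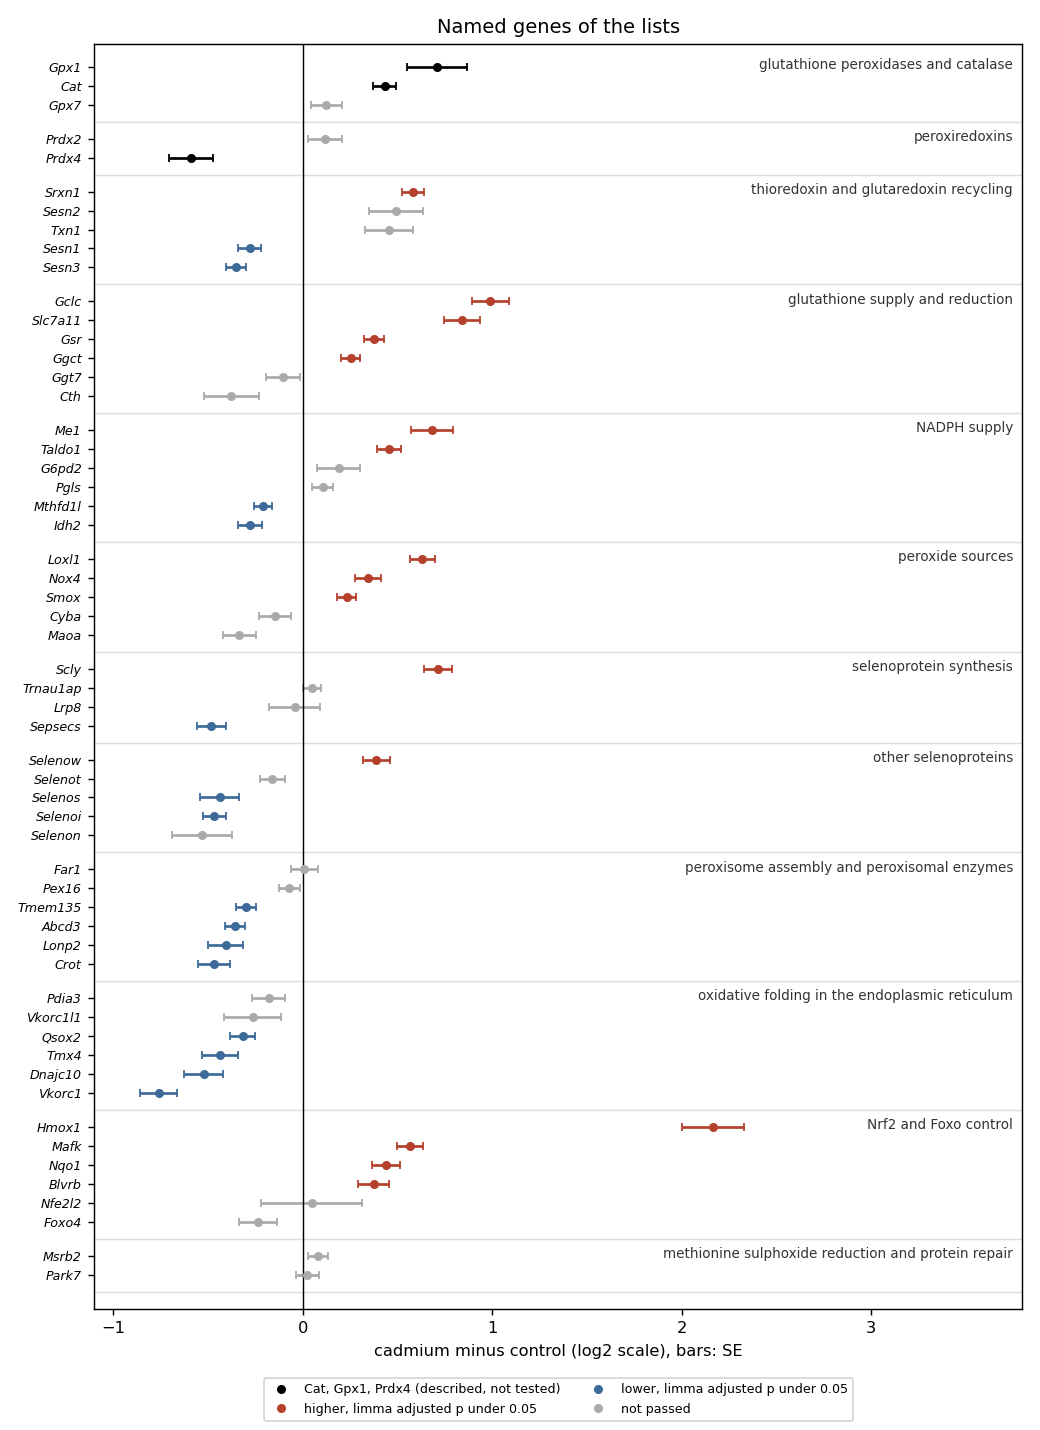
Change with cadmium on the log2 scale, with its SE, for the named genes of each list, with Cat, Gpx1 and Prdx4 in black. Genes that passed a limma adjusted p under 0.05 are red where higher and blue where lower, and the called genes of the peroxisome and oxidative folding lists all lie below 0, where those of glutathione supply all lie above it.

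Calls among these genes depended on single arrays. Of the 31, 16 kept their call with each of the 6 arrays left out in turn. The other 15 lost it at least once, with a highest adjusted p between 0.0597 and 0.119, namely Sesn1, Ggct, Idh2, Mthfd1l, Nox4, Smox, Selenos, Selenow, Crot, Lonp2, Tmem135, Tmx4, Qsox2, Dnajc10 and Blvrb. Of the 89 list genes not called, 6 passed with at least 1 array left out. These were Txn1, Txnip and Maoa without cadmium replicate 1, and Sesn2, Mthfd2 and Qsox1 without control replicate 3. The count of called genes was 29 without cadmium replicate 1, 17 without cadmium replicate 2, 17 without cadmium replicate 3, 16 without control replicate 1, 17 without control replicate 2 and 28 without control replicate 3.

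The genes whose pattern across the 6 arrays was most like each of the 3 were found by the root-mean-square difference of values after each gene's own mean was subtracted, among 6640 genes. Such likeness includes the difference between groups that chose the 3 genes and carries no test. For Cat the nearest were Tes, Nsmaf, Cdk10, Bmper and Neurog2, at differences of 0.03 to 0.04. Tes, a focal adhesion protein, measured 6.11, 6.16 and 6.24 on the cadmium arrays, against 5.72, 5.74 and 5.75 on the control arrays. For Gpx1 they were Efhd2, Epha2, Hspa4l, Zfp36 and Nop58, at 0.08 to 0.11, and all 5 had cadmium replicate 1 as their lowest cadmium array. Efhd2, a calcium-binding protein, measured 7.14, 7.71 and 7.69 on the cadmium arrays, against 7.03, 6.86 and 6.90 on the control arrays. For Prdx4 they were Tram2, Jak1, Sp3, Spon1 and Stim1, at 0.08 to 0.10. Cadmium replicate 1 was also the lowest cadmium array for each gene named here as nearest to Cat or to Prdx4. That trait is therefore not particular to the genes nearest to Gpx1. Tram2, a protein of translocation into the endoplasmic reticulum, measured 5.21, 5.60 and 5.63 on the cadmium arrays, against 5.95, 6.09 and 6.01 on the control arrays, and Stim1, the calcium sensor of the endoplasmic reticulum, averaged 6.39 ± 0.09 with cadmium and 6.96 ± 0.03 in control.

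**Figure D5:**
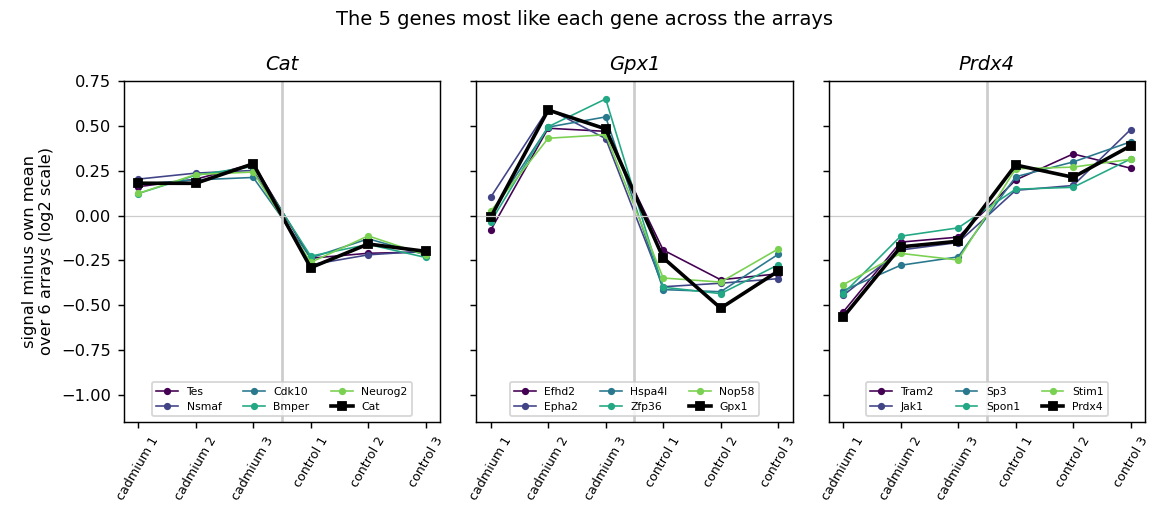
Signal on the log2 scale minus the mean of the gene over the 6 arrays, for Cat, Gpx1 and Prdx4 (black squares) and the 5 genes nearest to each (coloured points). The 5 genes nearest to Gpx1 share its low value on cadmium replicate 1, which is also the lowest cadmium array of those nearest to Cat and Prdx4. Those nearest to Cat differ from it by a root mean square of 0.03 to 0.04.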

How the data were processed

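Signals of biotin-labelled total RNA on 6 arrays were taken from the table the authors deposited, 1 value per transcript cluster. Per the labels, 3 samples had cadmium and 3 did not. The deposited values lie between 0.45 and 13.1 and are read as log2. Background correction, normalization, software, the base of the logarithm and any filter by the authors are not given in these sources. The values were not rescaled. Columns that no sample could be given numbered 0.

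Of 39746 transcript clusters, 19099 had 1 gene in the platform annotation after symbols were updated through RefSeq (GRCm38.p6), 1046 had several and 19601 none. The brightest probe stood for each of 18884 genes. No other gene shared the values of Cat, Gpx1 or Prdx4, each of which had 1 probe.

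The test was limma 3.58.1 under R 4.3.3 (lmFit and eBayes with group as the term) and Benjamini-Hochberg adjustment over all genes. The steps were tested on simulated data. The number of arrays limits the precision.

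The 3 genes and the lists were chosen with earlier results of these data known. Named genes of a list are Gpx7 and Prdx2, up to 4 called genes with the lowest adjusted p and the 2 brightest others. Col3a1, Col1a2, Cftr, Muc1, Ins2, Cela2a, Ctrb1, Prss2, Cel and genes that changed call with an array left out were named after their values were seen.

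The labels do not say if replicate numbers pair the samples, and the main fit did not use them as pairs. Alternatives covered scaling, variance model, array weights, block, probe, filters, threshold and single arrays left out.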

Additional observations from a re-analysis of the deposited data

How the results depend on the processing

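The changes of Cat, Gpx1 and Prdx4 kept their sign in all 41 alternative values computed for them and moved by less than the spread between replicates in each. Part of these values could not differ. Each gene had 1 probe, and filters on level and the replicate block leave the difference of group means as it is. All reuse the values that chose the genes, so the count is a description and not support. Their values were 0.39, 0.67 and -0.63 with each array centred on its median. Leaving out 1 array gave 0.40 to 0.46 for Cat, 0.59 to 0.89 for Gpx1 and -0.67 to -0.45 for Prdx4. Prdx4 has no value in the fit of genes above the negative control bound.

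Over all genes 2301 were called, of which 53.1% were higher with cadmium. That share was 38.0% with arrays centred (880 higher and 1435 lower) and 43.4% after quantile normalization (967 and 1259). The count was 875 among genes above the negative control bound, 428 against a minimum change of 0.26, 864 at an adjusted p under 0.01, and 1139 to 2360 with 1 array left out. With the replicate block it was 1386. Of the 120 list genes 31 were called, with 17, 7 and 15 under the same bound, minimum change and stricter threshold, 16 to 29 with 1 array left out and 21 with the replicate block. The deviations of arrays of the same number correlated at -0.11, 0.06 and -0.11, and cadmium replicate 1 correlated best with control replicate 3, at 0.16. With 3 arrays in a group, such correlations cannot show if cultures of the same number shared a day or passage. Some of the settings also had fewer genes or arrays in the fit. The cause of the shifts in these counts and shares was not tested. Signal over background limits Cat, Prdx4 and the 92 list genes with both means below the bound, whose changes may be compressed.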
